A study of Mus musculus with 8 samples.

Results

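SR proteins and heterogeneous nuclear ribonucleoproteins (hnRNPs) are RNA-binding proteins that choose which exons of a primary transcript enter the messenger RNA. The genes described here are the rows of the expression table whose symbols begin with Srsf or Hnrnp or are an Rbm symbol with a number, joined by Mbnl1, Mbnl2, Rbfox1, Rbfox2, Celf1, Celf2, Tra2a and Tra2b. They number 75 of 54091 rows, and 69 of them are among the 13141 genes that reached a mean of 10 normalized counts, the level from which genes were tested. They are called splicing factor genes below, although 16 of the 75 are RBM genes classed apart from those with known splicing roles. The rule reads gene names and no measured values, though it was set with earlier results of these data known.

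RNA-seq libraries came from white quadriceps, where fast glycolytic fibres prevail, of 8 male mice aged 11 to 14 weeks that had been fasted for 14 h. The 4 Acot2 muscle knockouts (mice 5 to 8, labelled CKM Cre) carried floxed Acot2 and a Cre transgene driven by the promoter of muscle creatine kinase, which is active in muscle fibres. The 4 floxed controls (mice 1 to 4, labelled Loxp/Loxp) had the floxed alleles and were otherwise of the same sex, age range and fasting state. Acot2 encodes a mitochondrial thioesterase that releases free fatty acid from long-chain acyl-CoA. The title of the series concerns fatty acid oxidation in glycolytic muscle, and the question here was whether splicing factor transcripts differed after loss of the enzyme. Mice with Cre but without floxed alleles were not analysed here, so Cre itself and loss of Acot2 cannot be told apart. Cells that do not use the muscle creatine kinase promoter keep the gene, and these libraries are of whole tissue.

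An SR protein binds exonic enhancers through an RNA recognition motif and recruits the splicing machinery through a tail rich in arginine and serine, whose phosphorylation by SRPK and CLK kinases controls its place and activity. Many hnRNPs bind silencer elements and oppose this recruitment, so the balance between both families can set whether an exon is used. In striated muscle a further set, the muscleblind, Rbfox and CELF proteins with Rbm20, Rbm24 and Rbm38, directs the change from fetal to adult isoforms of sarcomere and calcium-handling proteins. SR genes are known for controlling their own level through poison exons, which send the transcript to nonsense-mediated decay.

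Acot2 transcript was lower in the knockouts, at 413, 312, 600 and 543 normalized counts in knockouts 5 to 8, against 1675, 3927, 2492 and 1530 in floxed controls 1 to 4. The groups did not overlap, the knockout mean was 19.4% of the floxed control mean, and an exact two-sided permutation test gave p = 0.0286, the smallest that 70 assignments of 4 against 4 allow. That p was 0.05 with a covariate for mouse number range and 0.1 without floxed control 4 and knockout 5, each the smallest its design allows. The covariate set floxed control 3 and knockout 8, whose mouse numbers are higher, apart from the other mice. What the ranges stand for is not given in the labels. In the limma fit over all tested genes the Acot2 difference of -2.30 (SE 0.287) had an adjusted p of 0.087, so Acot2 was not called at 0.05. Over the alternative settings its limma adjusted p ranged from 0.0042 without the filter on low values to 0.758. Reads on genes ranged from 28659632 to 38612914 in knockouts and from 32282222 to 40977866 in floxed controls. With 4 mice per group, the median standard error (SE) of a log2 difference was 0.104 over the splicing factor genes and 0.155 over all tested genes.

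Fast fibre markers were the most abundant of the marker lists, with summed normalized counts of 3890490 to 5920990 in knockouts and 4907730 to 5811430 in floxed controls, and the slow fibre list summed to 1299.8 to 2531 in knockouts and 1248 to 1890.0 in floxed controls. Atp2a2 made up most of the slow fibre sum, but 7 of 7 slow fibre markers were higher in knockouts by value, with a median difference of 1.25. Of these, 1 of 7, Myl3, was at an unadjusted limma p under 0.05, with no overlap of the groups. In the other slow fibre markers the groups overlapped, and in some of them single mice lay far apart. Myl2 had 441 normalized counts in knockout 7 and 2.42 in knockout 8 (SE of its difference 1.21). Tnni1 had 293 in knockout 6 and 4.84 in knockout 8 (SE 1.04). Macrophage markers summed to 2155 to 3903 in knockouts and 1309 to 2316 in floxed controls, with 8 of 8 higher by value and 5 of 8 at an unadjusted limma p under 0.05. Endothelial markers summed to 8662 to 10169.5 in knockouts and 7376 to 8570.2 in floxed controls. Of these, 7 of 8 were higher by value and 4 of 8 were higher at that level. Beside these marker counts, 50.6% of all tested genes were higher by value and 2.47% were higher at an unadjusted limma p under 0.05. The lymphocyte list summed to at most 4.51 normalized counts in knockouts and 7.30 in floxed controls, with Cd3d at 0 in every library. The part of these cell types in the values below was not tested, and in bulk tissue fewer cells of a type and less RNA per cell cannot be told apart.

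No splicing factor gene passed an adjusted p of 0.05 in limma: 0 of 69, as for 0 of all 13141 tested genes, Acot2 among them. At an unadjusted p under 0.05 limma gave 6 of the 69, a share of 8.70%, beside 6.16% of all tested genes. All 6 were lower in knockouts, where the share of all tested genes was 3.70%, and 0 of 69 were higher, beside 2.47%. Limma's voom on the recovered reads also gave 0 of 69 at an adjusted p under 0.05, as for 0 of all tested genes. It gave 6 lower at an unadjusted one, beside 3.45% of all tested genes. By value, 49 of 69 differences were below 0, or 71.0%, beside 49.4% of all tested genes, and 20 of 69 were above 0, or 29.0%, beside 50.6%. Their median was -0.07 beside 0.0031 over all tested genes. All differences are knockout minus floxed control in log2 of the normalized count plus 1, with the moderated SE of limma.

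By class the counts were as follows, and no test compared the classes. SR genes had 7 of 12 differences above 0 and a median of 0.02. For hnRNP genes 14 of 20 were below 0, with a median of -0.06, and for the muscle regulators 6 of 9, with a median of -0.05. Of the RBM genes with known splicing roles 14 of 15 were below 0, with a median of -0.09, and of the other RBM genes 10 of 13, also with a median of -0.09. Scaling every library to the same total moved the median over all tested genes to 0.0443 and put 26 of 69 splicing factor genes above 0, instead of 20. The median over the splicing factor genes was then -0.03, so both medians moved up. Under that scaling 248 of the 739 genes of the whole table with an unadjusted limma p under 0.05 were lower, against 486 of 810. The splicing factor genes had 1 of 69 higher and 4 of 69 lower, where the share of all tested genes that were lower was 1.89%.

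**Figure D1:**
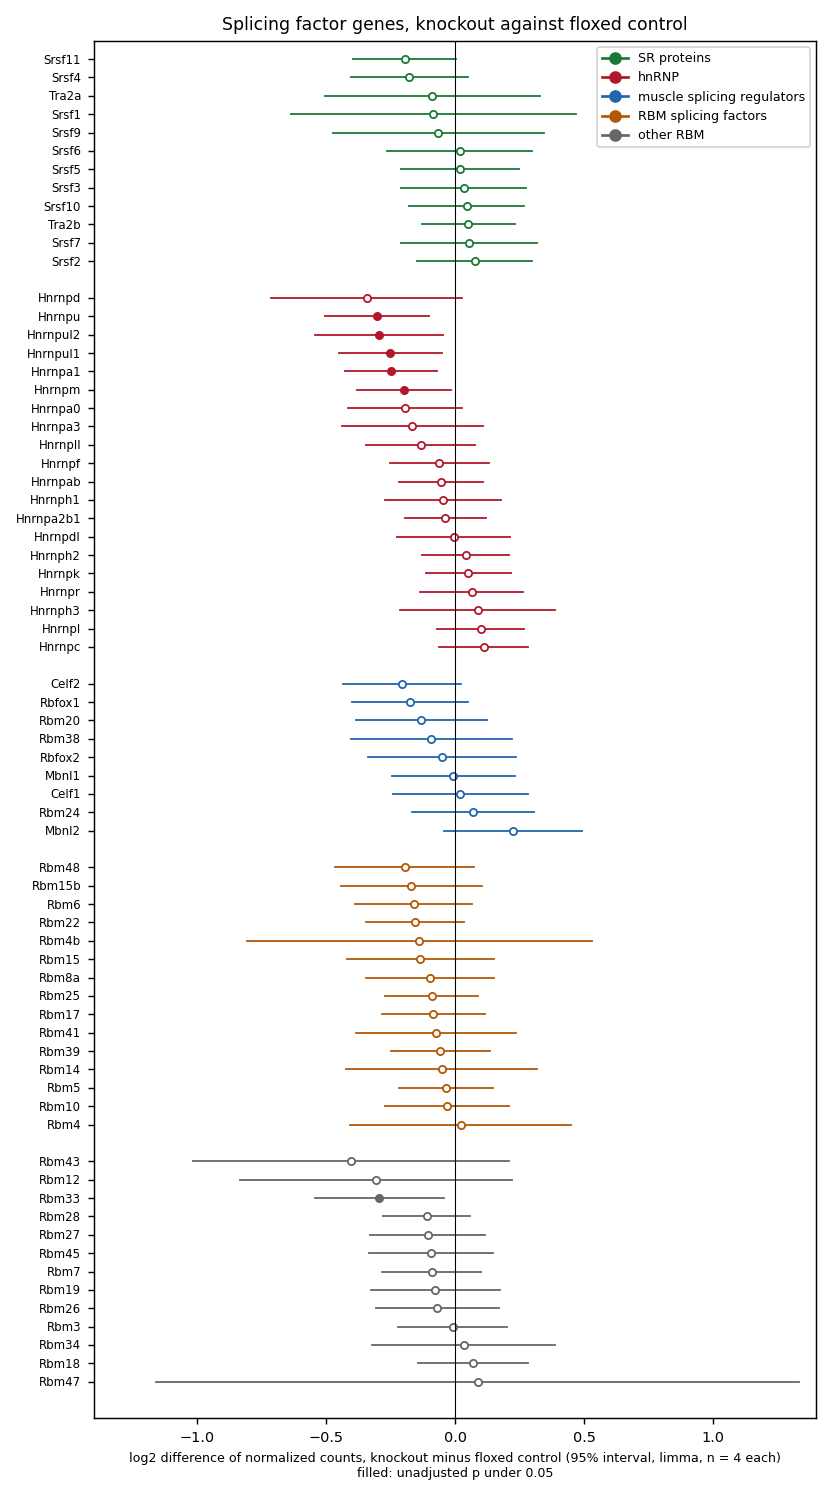
Log2 difference of normalized counts, knockout minus floxed control, for the 69 tested splicing factor genes, one row per gene and grouped by class. Points are limma estimates and bars their 95% intervals (n = 4 mice each); the 6 filled points, 5 hnRNP genes and Rbm33, have an unadjusted p under 0.05 and none has an adjusted p under 0.05.

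In level, muscle regulators led the set. Per kilobase of principal transcript, Rbfox1 had 4590.4 normalized counts in knockouts and 5171 in floxed controls, and Mbnl1 had 3728 in knockouts and 3755 in floxed controls. Their order depended on the transcript taken as principal: with the longest annotated transcript Mbnl1 stood at 3742 and Rbfox1 at 2243.5 over all 8 mice. Next came Hnrnpa2b1 at 2816 and 2892 per kilobase in knockouts and floxed controls, then Rbm24 at 2236 and 2132, Srsf5 at 2159.5 and 2126, and Mbnl2 at 2126 and 1799. Rbm24, Srsf5 and Mbnl2 overlapped in their values per mouse and have no firm order. This order also depended on the transcript: per kilobase of the longest annotated one, Rbm24 stood at 2184, Mbnl2 at 1606, Hnrnpk at 1574, Hnrnpa2b1 at 1301 and Srsf5 at 965 over all 8 mice.

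**Figure D2:**
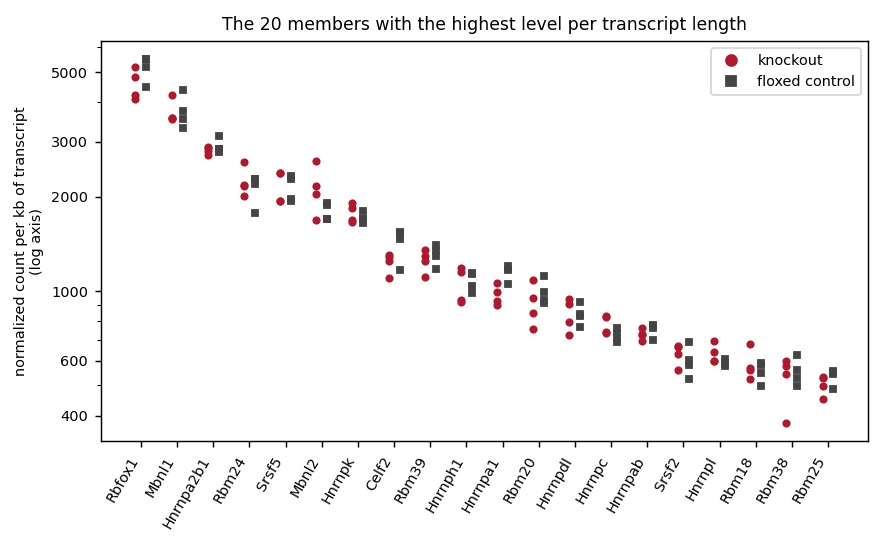
Normalized count per kilobase of principal transcript on a log axis for the 20 splicing factor genes with the highest level, in 4 knockouts (circles) and 4 floxed controls (squares). Rbfox1 and Mbnl1 stand highest on this length, and the groups overlap for each gene shown.

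Among hnRNP genes the lowest p belonged to Hnrnpu, whose product, also called scaffold attachment factor A, binds RNA and chromatin. Hnrnpu (gene ID 51810, GRCm38 chromosome 1, 178321108 to 178337797, minus strand) had 2569, 2069.6, 2181 and 2162 normalized counts in knockouts 5 to 8, against 2768, 3057, 2531 and 2705 in floxed controls 1 to 4. Knockouts 6, 7 and 8 lay below every floxed control and knockout 5 lay within their range. The means were 2245 ± 221 in knockouts and 2765 ± 219 in floxed controls (SD, n = 4 each). The difference was -0.30 (SE 0.0916, 95% interval -0.50 to -0.10), with a limma adjusted p of 0.746.

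Hnrnpa1, an antagonist of Srsf1 in the choice of splice sites, had 2029.9, 1731, 1779 and 1906 normalized counts in knockouts 5 to 8, against 2264, 2022, 2245 and 2309 in floxed controls 1 to 4. Again 3 of 4 knockouts were below all floxed controls, and knockout 5 exceeded floxed control 2 by a few counts. The difference for Hnrnpa1 (gene ID 15382, chromosome 15, 103240432 to 103246692, plus strand) was -0.25 (SE 0.0815, interval -0.43 to -0.07), with a limma adjusted p of 0.746. Hnrnpu and Hnrnpa1 kept an unadjusted limma p under 0.05 in all 19 alternative settings. Their limma adjusted p ranged from 0.0981 to 0.992 for Hnrnpu and from 0.116 to 0.992 for Hnrnpa1. The other splicing factor genes under 0.05 in the main fit did not keep that level throughout. Of the 19 settings, Hnrnpul1 kept it in 15, Hnrnpul2 and Rbm33 in 14 each and Hnrnpm in 10.

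Hnrnpul1 and Hnrnpul2 encode proteins built like Hnrnpu. Hnrnpul1 had 1826, 1435, 1583 and 1553 normalized counts in knockouts 5 to 8, against 1978, 1804, 1790.2 and 2018 in floxed controls 1 to 4. Hnrnpul2 had 2240.0, 1574, 1660.0 and 1726 in knockouts, against 2262, 2049, 2071 and 2388 in floxed controls. In both genes knockout 5 lay inside the range of the floxed controls and the other 3 knockouts lay below it. The differences were -0.25 (SE 0.0908) for Hnrnpul1 and -0.30 (SE 0.113) for Hnrnpul2, each with a limma adjusted p of 0.746.

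Hnrnpm, a splicing regulator that binds GU-rich sequence, was the hnRNP gene whose groups did not overlap. It had 1003, 929, 996 and 986 normalized counts in knockouts 5 to 8, against 1019.5, 1206, 1087 and 1182 in floxed controls 1 to 4. The gap between the groups was small, since knockout 5 and floxed control 1 nearly met. The difference was -0.20 (SE 0.0829, interval -0.38 to -0.01), with a limma adjusted p of 0.746. Of its exon bases, 14.7% are shared with a neighbouring gene on the same strand. Over all splicing factor genes 4 of 69 had every knockout below every floxed control, or 5.80%, beside 1.62% of all tested genes. Of these 4, 2 were among the other RBM genes. Every knockout lay above in 0 of 69, beside 1.13% of all tested genes. In either direction the share of all tested genes was 2.75%.

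**Figure D3:**
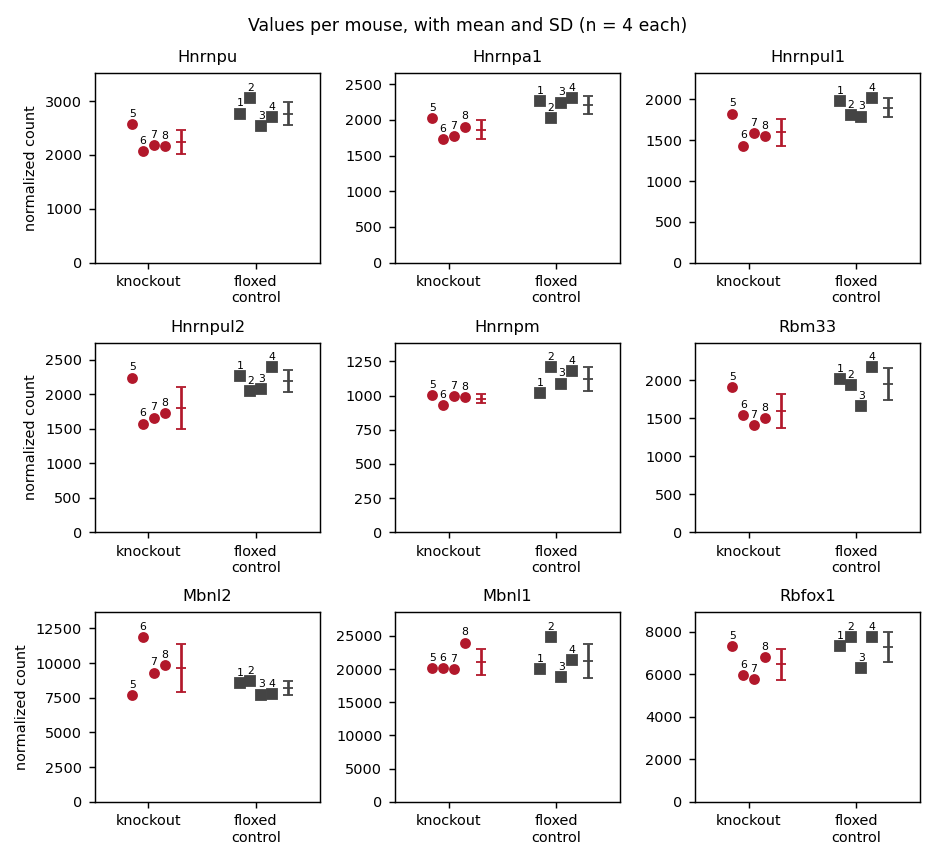
Normalized counts per mouse for the 6 splicing factor genes with an unadjusted p under 0.05 and for 3 abundant muscle regulators, knockouts 5 to 8 left of floxed controls 1 to 4, with the mean and SD beside each group (n = 4). Knockout 5 is the highest knockout for the 6 genes in the upper rows and the lowest for Mbnl2.

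Promoter windows are shown for Hnrnpu, Hnrnpa1, Hnrnpul1 and Hnrnpm, picked as hnRNP genes with an unadjusted limma p under 0.05. Hnrnpul2, also at that level, matched no RefSeq promoter. The windows are the 250 bases before the RefSeq start on GRCm38.p6, read on the strand of the gene. Capitals mark the letters CCAAT, the box bound by the factor NF-Y, and GGGCGG, the GC box bound by Sp1, found on either strand (ATTGG and CCGCCC on the other strand). The windows are chr1:178337816-178338065 (minus strand) for Hnrnpu, chr15:103240147-103240396 (plus strand) for Hnrnpa1, chr7:25754760-25755009 (minus strand) for Hnrnpul1 and chr17:33685459-33685708 (minus strand) for Hnrnpm.
Hnrnpu: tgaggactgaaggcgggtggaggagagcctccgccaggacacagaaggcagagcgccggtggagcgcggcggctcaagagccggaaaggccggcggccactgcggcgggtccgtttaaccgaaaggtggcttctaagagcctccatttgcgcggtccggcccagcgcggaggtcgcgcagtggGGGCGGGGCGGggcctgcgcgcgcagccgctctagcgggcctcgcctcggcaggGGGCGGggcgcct
Hnrnpa1: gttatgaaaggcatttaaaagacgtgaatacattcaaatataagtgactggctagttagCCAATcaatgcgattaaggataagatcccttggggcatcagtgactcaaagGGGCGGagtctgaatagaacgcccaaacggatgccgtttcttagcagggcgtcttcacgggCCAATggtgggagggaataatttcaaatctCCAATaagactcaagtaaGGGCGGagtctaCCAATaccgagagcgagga
Hnrnpul1: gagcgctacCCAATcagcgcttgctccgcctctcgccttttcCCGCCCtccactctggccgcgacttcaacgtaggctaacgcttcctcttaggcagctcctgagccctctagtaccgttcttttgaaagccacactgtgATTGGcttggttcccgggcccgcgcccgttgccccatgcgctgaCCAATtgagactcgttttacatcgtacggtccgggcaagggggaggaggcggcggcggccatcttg
Hnrnpm: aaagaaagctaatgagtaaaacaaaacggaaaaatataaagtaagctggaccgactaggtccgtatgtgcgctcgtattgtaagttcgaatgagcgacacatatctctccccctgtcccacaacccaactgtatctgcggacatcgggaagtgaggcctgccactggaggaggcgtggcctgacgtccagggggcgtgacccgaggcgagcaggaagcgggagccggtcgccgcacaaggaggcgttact
The windows differed. Hnrnpu held 0 CCAAT and 3 GGGCGG, of which a pair overlaps, and 32 CpG. Hnrnpa1 held 4 CCAAT and 2 GGGCGG with 11 CpG. Hnrnpul1 held 3 CCAAT and 1 GGGCGG, and Hnrnpm held neither.

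Across the splicing factor genes, 66 of 75 matched a RefSeq promoter, giving 89 windows. CCAAT stood in 37 of 89 windows (41.6%), beside 33.8% of the 32817 windows of all genes. By class it stood in 17 of 27 hnRNP windows, 4 of 16 SR windows and 2 of 13 windows of muscle regulators. GGGCGG stood in 52 of 89 (58.4%), beside 32.7% of all windows, with 20 of 27 for hnRNP, 15 of 16 for SR and 5 of 13 for muscle regulators. The median window held 19 CpG, beside 6 over all windows, and TATAAA stood in 12.4% of both. GGGCGG itself contains a CpG, and some genes give several windows that share bases, so these are counts of letters and not of sites. The windows of all genes were not limited to tested genes, so the 2 sets are not matched for expression in muscle.

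The other hnRNP genes showed smaller or more spread values. Hnrnpd, also called AUF1, which binds AU-rich elements of unstable messages, had the lowest difference of the class and the widest spread, with 979, 569.7, 829 and 611 normalized counts in knockouts 5 to 8, against 995, 777, 922 and 1026 in floxed controls 1 to 4. Knockouts 6 and 8 were below every floxed control and knockouts 5 and 7 were not, and the difference of -0.34 had an SE of 0.168 and an interval of -0.71 to 0.03. Hnrnpc, which binds uridine tracts, averaged 1956 ± 130.1 in knockouts and 1809 ± 85.1 in floxed controls (SD, n = 4 each), a difference of 0.11 (SE 0.0782). Hnrnpl, which binds CA repeats, differed by 0.10 (SE 0.0769), with 1695 ± 123 in knockouts and 1579 ± 35.6 in floxed controls.

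The intervals of the 3 most abundant hnRNP genes per length of principal transcript included 0. Hnrnpa1, whose interval lay below 0, was nearly level with Hnrnph1, at 1061 and 1063 normalized counts per kilobase over all 8 mice. Hnrnpa2b1, the partner of Hnrnpa1 in the core particle, had 4659, 4756, 4512 and 4790.3 normalized counts in knockouts 5 to 8, against 4709.6, 5194, 4612 and 4709 in floxed controls 1 to 4, a difference of -0.04 with a 95% interval of -0.19 to 0.12. Hnrnpk, a protein with KH domains, had 4462, 4527, 5113 and 4945 in knockouts, against 4836, 4424, 4547 and 4547 in floxed controls, a difference of 0.05 (interval -0.11 to 0.22). Hnrnph1, which binds G runs, differed by -0.05 (interval -0.27 to 0.18). In these genes the values of knockouts and floxed controls overlapped.

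In all 12 tested SR genes the groups overlapped. Srsf11 had the lowest p of the class, with 1201, 1142, 1053 and 1099 normalized counts in knockouts 5 to 8, against 1371, 1195, 1175 and 1418 in floxed controls 1 to 4. Here 3 of 4 knockouts were below all floxed controls and knockout 5 was not, and the difference of -0.20 (SE 0.09) had a limma adjusted p of 0.746. Srsf4 had 525, 456, 572 and 566 in knockouts, against 649.7, 542, 603 and 597 in floxed controls, a difference of -0.18 (SE 0.103). Gm12992, annotated on the opposite strand, shares 43.0% of the exon bases of Srsf4, and whether counting used strand is not given in the sources used here.

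Srsf5 and Srsf2 were typical of the rest. Srsf5, the most abundant SR gene per length, had 3739, 3036, 3729.6 and 3040.2 normalized counts in knockouts 5 to 8, against 3646, 3029, 3576 and 3082 in floxed controls 1 to 4. Each group held a high and a low pair of mice, and the difference was 0.02 (interval -0.21 to 0.25). Srsf2, also called SC35, differed by 0.08 (interval -0.15 to 0.30), with 1193, 1061, 1263 and 1269.5 in knockouts, against 1103, 998, 1144 and 1306 in floxed controls. Opposite-strand genes share 25.3% of its exon bases.

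Srsf1, the SR protein first known as SF2/ASF, had low counts and a wide interval: 146, 80.6, 121 and 138 normalized counts in knockouts 5 to 8, against 108, 87, 165 and 160.0 in floxed controls 1 to 4. Its difference was -0.08 with an interval of -0.63 to 0.47. At this depth and number of mice the values do not exclude a difference within those bounds. Srsf3, which has a short arginine-serine tail, differed by 0.03 (SE 0.11), Srsf6 by 0.02 (SE 0.128), Srsf7, with a zinc knuckle, by 0.05 (SE 0.119), and Srsf9 by -0.06 (SE 0.186). Srsf10, which represses splicing when dephosphorylated, differed by 0.04 (SE 0.101).

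The Tra2 proteins are SR-like activators that bind GAA-rich enhancers. Tra2b had 857, 819, 771 and 836 normalized counts in knockouts 5 to 8, against 746, 777, 848 and 797 in floxed controls 1 to 4, a difference of 0.05 (SE 0.0814). Tra2a had 469.6, 316, 325 and 286 in knockouts, against 354, 271, 397 and 463 in floxed controls, a difference of -0.09 (SE 0.189). In both the groups overlapped. Srsf12 was listed at 0 in every library.

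Nonsense-mediated decay transcripts are annotated for 11 of 13 SR genes and 10 of 20 hnRNP genes, beside 26.2% of the 12704 tested genes with a matched annotation. Retained-intron transcripts are annotated for 52 of the 75 splicing factor genes. Counts per gene add such transcripts to the productive ones, so these values do not show how poison exons or the exons of any target were used.

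In all 9 muscle regulators the groups overlapped. Mbnl1, the muscleblind protein sequestered by expanded CUG repeats in myotonic dystrophy, had 20121, 20188, 20042 and 23982 normalized counts in knockouts 5 to 8, against 20046, 24841, 18746 and 21309.8 in floxed controls 1 to 4. Knockouts 5, 6 and 7 were close together, all 4 knockouts lay inside the wider range of the floxed controls, and the difference was -0.01 (interval -0.24 to 0.23). Mbnl2, its paralogue, had 7674, 11879, 9318 and 9836 in knockouts, against 8563, 8724, 7727 and 7743 in floxed controls. For Mbnl2, 3 of 4 knockouts lay above all floxed controls while knockout 5 was the lowest mouse of all, and the difference of 0.23 (SE 0.121) had a limma adjusted p of 0.746.

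Rbfox1, which binds UGCAUG beside regulated exons, had 7306, 5964, 5768 and 6798 normalized counts in knockouts 5 to 8, against 7325, 7739, 6290.1 and 7749 in floxed controls 1 to 4. Knockouts 6 and 7 lay below all floxed controls, knockouts 5 and 8 did not, and the difference was -0.17 (SE 0.102). Rbfox2 was less abundant, at 678 ± 80.3 in knockouts and 705 ± 110.0 in floxed controls (SD, n = 4 each), a difference of -0.05 (SE 0.13). Celf2 had 3003, 2916, 2571 and 3039 in knockouts, against 3429, 3574, 2726 and 3616 in floxed controls, a difference of -0.20 (SE 0.103). Celf1, which opposes Mbnl1 on shared exons, differed by 0.02 (SE 0.119).

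Rbm20, which represses exons of titin in heart, had 5308, 4159, 3696 and 4635 normalized counts in knockouts 5 to 8, against 4574, 4852, 4473 and 5465 in floxed controls 1 to 4. The groups overlapped, with knockout 7 lowest and floxed control 4 highest, and the difference was -0.13 (SE 0.114). Rbm24, a muscle RNA-binding protein that promotes inclusion of muscle exons, had 6678, 6216, 6721 and 7980.3 in knockouts, against 5474, 6761, 7034 and 7045 in floxed controls, a difference of 0.07 (SE 0.107). Rbm38 had 784, 1194, 1128 and 1237 in knockouts, against 1159, 1294, 1091 and 1033 in floxed controls. Apart from knockout 5, the knockouts of Rbm38 lay among the floxed controls, and the difference was -0.09 (SE 0.141).

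Ratios of paralogues within a library are free of library scaling. The log2 ratio of Mbnl2 over Mbnl1 was -1.39, -0.77, -1.10 and -1.29 in knockouts 5 to 8, against -1.23, -1.51, -1.28 and -1.46 in floxed controls 1 to 4. The log2 ratio of Hnrnpll over Hnrnpl was -0.98, -1.23, -1.48 and -1.18 in knockouts, against -0.87, -0.95, -1.11 and -1.01 in floxed controls. Both ratios overlapped between groups, as did the other 7 of the 9 pairs compared.

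RBM genes with splicing roles had low values of small size. Rbm22, which holds the catalytic RNA core of the spliceosome, had 387, 417, 416 and 397 normalized counts in knockouts 5 to 8, against 455, 462, 445 and 441 in floxed controls 1 to 4. All knockouts lay below all floxed controls, yet the difference of -0.16 (SE 0.0862) had an unadjusted limma p of 0.0961 and an adjusted p of 0.748. Rbm48, which acts on minor introns in maize and human cells, had 321, 251, 317 and 304 in knockouts, against 387, 302, 331 and 345 in floxed controls, a difference of -0.19 (SE 0.122). Rbm6 differed by -0.16 (SE 0.103), and Rbm15b, which guides methylation of adenosines in RNA with Rbm15, by -0.17 (SE 0.123).

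The abundant genes of this class were nearer 0. Rbm39, a partner of U2AF, had 3648, 3512, 3124 and 3812 normalized counts in knockouts 5 to 8, against 3781, 3629.9, 3311 and 3931 in floxed controls 1 to 4, a difference of -0.06 (SE 0.0873). Rbm25, linked to the U1 particle, differed by -0.09 (SE 0.0824), and Rbm5, which acts on exons of the FAS transcript in human cells, by -0.03 (SE 0.0828). Rbm4 had 119.8 ± 25 in knockouts and 118 ± 24 in floxed controls (SD, n = 4 each), and its count is uncertain because 60.5% of its exon bases are shared with a read-through gene on the same strand. In Rbm39, Rbm25 and Rbm5 the groups overlapped.

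Among the other RBM genes Rbm33 had the lowest p, with 1913, 1540.3, 1407 and 1504 normalized counts in knockouts 5 to 8, against 2018, 1939.8, 1663 and 2169 in floxed controls 1 to 4. Knockouts 6, 7 and 8 were below every floxed control and knockout 5 was above floxed control 3. The difference of Rbm33 was -0.29 (SE 0.114), with a limma adjusted p of 0.746. Rbm28, a nucleolar protein, had 782, 781, 821 and 819 in knockouts, against 897, 842, 895 and 826 in floxed controls, a difference of -0.11 (SE 0.0769) with no overlap of the groups. Rbm43 also did not overlap, at 21.6, 20.7, 18.6 and 15.7 in knockouts, against 32.2, 27.0, 21.9 and 22.2 in floxed controls, but its low counts gave an interval of -1.01 to 0.21 around a difference of -0.40.

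Rbm12 differed by -0.31 (SE 0.24), and 33.1% of its exon bases are shared with same-strand neighbours. Rbm3, a cold-inducible protein, had 759, 928, 756 and 725 normalized counts in knockouts 5 to 8, against 813, 779, 761 and 823 in floxed controls 1 to 4. Its difference was -0.01 (interval -0.22 to 0.20), and that of Cirbp, the other cold-inducible RNA-binding protein, was 0.02 (SE 0.107). Rbm18 differed by 0.07 (SE 0.0969) and Rbm7, a subunit of the complex that targets nuclear RNA to the exosome, by -0.09 (SE 0.0871).

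Of the 6 genes that were not tested, Rbm11, Rbm44 and Rbm46 averaged at most 1.01 normalized counts. Srsf12, Rbm42 and Rbm31y were at 0 in every library, where 3 reads, the limit that a count of 0 allows, equal 2.70 to 3.63 normalized counts in knockouts and 2.61 to 3.22 in floxed controls. For Rbm42, 75.4% of the exon bases are shared with a same-strand gene, which leaves its count uncertain. Nearest the level of 10 were Rbm47 at a mean of 16.2 inside it and Rbm11 at 1.01 outside it.

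Knockout 5 was the highest knockout in 6 of the 6 genes with an unadjusted p under 0.05, beside 75.9% of the 486 such lower genes in the whole table and 29.0% of all tested genes. Titin took 13.9%, 8.67%, 8.34% and 9.22% of normalized counts in knockouts 5 to 8, against 12.8%, 11.8%, 12.2% and 14.9% in floxed controls 1 to 4, so knockout 5 lay among the floxed controls. Without knockout 5 the count of lower splicing factor genes was 12 instead of 6, beside 8.64% of all tested genes, and the smallest limma adjusted p among them was 0.0964. That count was 3 without floxed control 1 (2.09% of all tested genes), 2 without floxed control 4 (1.68%), 2 without knockout 6 (1.93%), 3 without knockout 7 (2.83%) and 3 without knockout 8 (2.12%). It was 8 without floxed control 2 (3.74%) and 8 without floxed control 3 (3.52%). The part of titin or of knockout 5 in these values was not tested.

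Knockout 6 held the lowest value of all 8 mice for 21 of the 69 genes, 9 of them among the 20 hnRNP genes, while floxed control 4 held the highest for 16 and floxed control 1 for 14. SR genes followed another order: their median deviation from the mean over all mice was 0.12, -0.15, 0.03 and 0.03 in knockouts 5 to 8, against 0.02, -0.10, 0.08 and 0.13 in floxed controls 1 to 4. So each group held a mouse with low and a mouse with high SR transcripts. Together the 75 genes took 0.352%, 0.332%, 0.375% and 0.366% of normalized counts in knockouts, against 0.353%, 0.358%, 0.353% and 0.359% in floxed controls. In percent, the floxed controls lay inside the wider range of the knockouts. Knockout 7 had the highest percent but also the smallest total, 31336090 normalized counts against 33657381 to 35661396 in the other mice. The sum of the 75 genes was 117419 in knockout 7, against 117199 to 127744 in the other mice. Mbnl1 alone gave 21160 of these counts on average, so the sums weigh abundant genes most.

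**Figure D4:**
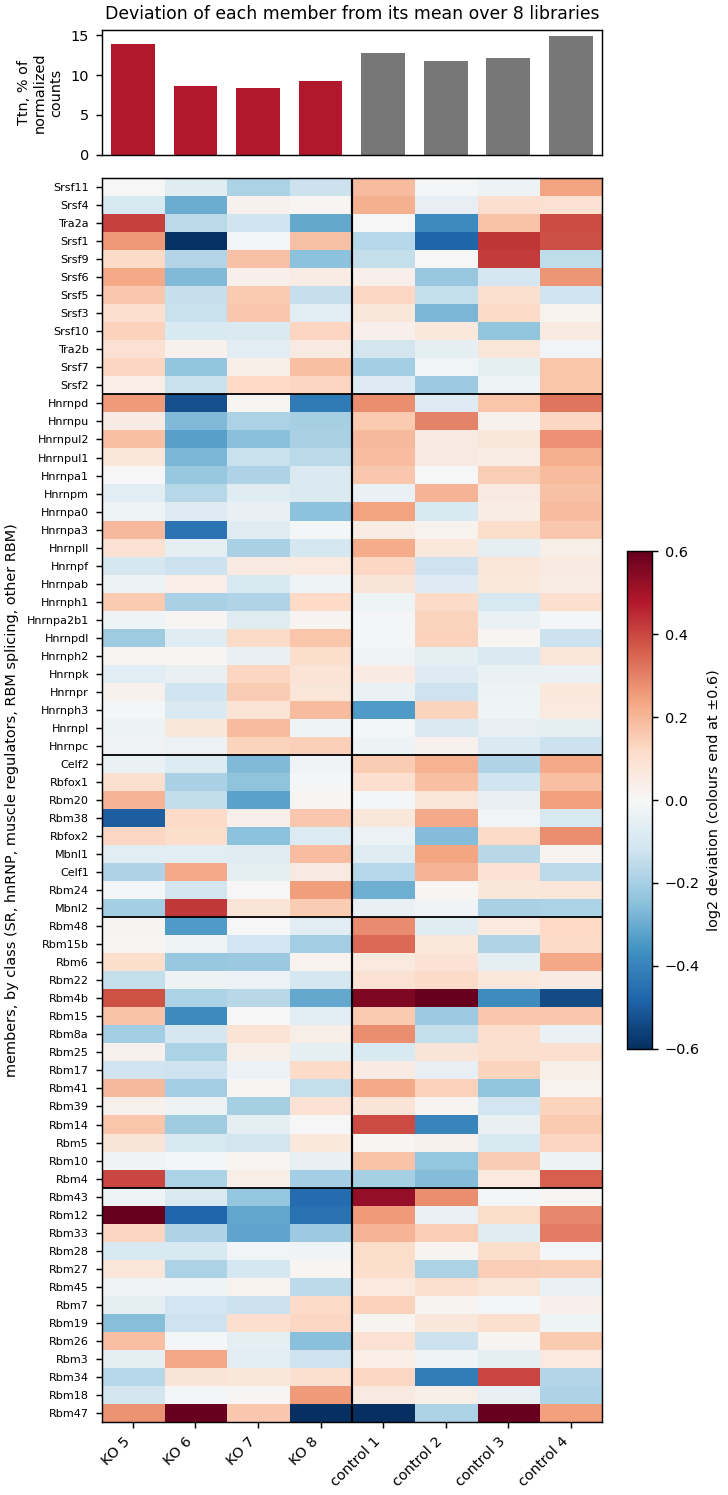
Log2 deviation of each of the 69 tested splicing factor genes (rows, by class) from its mean over the 8 mice (columns, knockouts 5 to 8 left of floxed controls 1 to 4), with the percent of normalized counts taken by titin above. Knockout 6 is low (blue) for many genes, and knockout 5 resembles the floxed controls in titin.

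The enzymes that phosphorylate, dephosphorylate and import SR proteins had 0 of 16 genes at an unadjusted limma p under 0.05 in either direction. The share of all tested genes was 6.16%. By value 9 were higher and 7 lower, beside 50.6% and 49.4% of all tested genes. Dyrk1b, a kinase of the DYRK family, had 1211, 788, 724 and 781 normalized counts in knockouts 5 to 8, against 1152, 893, 1066 and 1331 in floxed controls 1 to 4. The 3 low mice of Dyrk1b were knockouts 6, 7 and 8, and the difference was -0.36 (SE 0.168). Clk2 differed by -0.30 (SE 0.153) and Prpf4b by -0.19 (SE 0.111). Srpk3, the SR kinase of striated muscle, differed by 0.12 (SE 0.129).

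The core spliceosome had 0 of 40 genes higher and 4 of 40 lower at an unadjusted limma p under 0.05. The shares of all tested genes were 2.47% higher and 3.70% lower. At a limma adjusted p under 0.05 there were 0 of 40. Sf3b4, a subunit of the U2 particle, had 122, 98.0, 112 and 100.5 normalized counts in knockouts 5 to 8, against 133, 149, 142 and 135 in floxed controls 1 to 4. The groups did not overlap, and the difference was -0.37 (SE 0.137). Snrpe, a subunit of the Sm ring, did not overlap in the other direction, with 274.9, 290.8, 287.7 and 319.5 in knockouts, against 274.4, 248.9, 258.6 and 251.5 in floxed controls. Its lowest knockout and highest floxed control nearly met, and the difference was 0.18 (SE 0.103). Sf1, which recognises the branch point, differed by -0.34 (SE 0.125), Prpf6 of the U4/U6.U5 particle by -0.27 (SE 0.1) and Eftud2, the GTPase of the U5 particle, by -0.22 (SE 0.0874), each with a limma adjusted p of 0.746.

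Of 34 tested genes of other splicing regulators, 3 were higher and 2 lower at an unadjusted limma p under 0.05. Beside these stood 2.47% and 3.70% of all tested genes, and 0 of the 34 passed a limma adjusted p of 0.05. Taf15, an RNA-binding protein, had 212, 162, 175 and 173 normalized counts in knockouts 5 to 8, against 232, 234, 215 and 249.7 in floxed controls 1 to 4, a difference of -0.37 (SE 0.125). Ptbp3, a polypyrimidine tract binding protein, had 781, 931, 774 and 813 in knockouts, against 752, 606, 655 and 697 in floxed controls, a difference of 0.28 (SE 0.0993). Tia1, which promotes use of weak splice sites, had 361, 361, 374 and 318 in knockouts, against 282, 303, 284 and 307 in floxed controls, a difference of 0.26 (SE 0.1). In these 3 genes the groups did not overlap. Nor did they in Tial1, which differed by -0.18 (SE 0.0861) with an unadjusted limma p of 0.0552. Its highest knockout, at 1395.4, nearly met its lowest floxed control, at 1395.8. The other genes of this list with an unadjusted limma p under 0.05 were Khdrbs3 at 0.64 (SE 0.284) and Pcbp1 at -0.26 (SE 0.113).

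For the exon junction complex and nonsense-mediated decay, 0 of 18 genes were higher and 3 of 18 lower at an unadjusted limma p under 0.05. Of all tested genes 2.47% were higher and 3.70% lower at that level. None of the 18 had a limma adjusted p under 0.05. By value 14 of 18 were lower, beside 49.4% of all tested genes. Acin1, an exon junction protein, had 1378, 922, 1159 and 1049 normalized counts in knockouts 5 to 8, against 1418, 1517, 1326 and 1548 in floxed controls 1 to 4, a difference of -0.38 (SE 0.119). Upf1, the helicase of the decay pathway, differed by -0.35 (SE 0.13) and the nuclease Smg6 by -0.34 (SE 0.134). In these 3 genes knockout 5 was again the highest knockout.

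Muscle transcripts known for regulated splicing had 0 of 18 higher and 2 of 18 lower at an unadjusted limma p under 0.05. The shares of all tested genes were 2.47% and 3.70%. At a limma adjusted p under 0.05 there were 0 of 18. Mef2d, a transcription factor with a muscle-specific exon, had 4887, 3254, 3595 and 3742 normalized counts in knockouts 5 to 8, against 4801, 4685, 4839.7 and 5151 in floxed controls 1 to 4, a difference of -0.35 (SE 0.114). Ryr1, the calcium release channel, had 252337, 134775, 139199 and 146109 in knockouts, against 229414, 229287, 206144 and 270374 in floxed controls, a difference of -0.52 (SE 0.208). In both, knockouts 6, 7 and 8 lay below all floxed controls and knockout 5 among them. Cacna1s, the voltage sensor coupled to Ryr1, differed by -0.23 (SE 0.122).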

How the data were processed

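Total RNA of white quadriceps from 4 Acot2 muscle knockouts and 4 floxed controls was sequenced with a stranded TruSeq kit, per the labels' protocols. STAR, HTSeq, DESeq2, cutadapt and FastQC (no versions) and build GRCm38 are named, per the submitters' processing notes. The sources used here do not give the annotation release or the strand setting. The deposited values are log2(n + 1), where n is the read count of a gene divided by 1 size factor per library, as found from the values: multiplied back by that factor, 100% of values of at most 200 reads came within 0.1 of a whole read. Replicates have different mouse numbers and were taken as separate animals.

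Differences were fitted with limma 3.58.1 (lmFit, eBayes with trend) in R 4.3.3 over the 13141 genes with a mean of at least 10, with Benjamini-Hochberg adjustment over all of them. The script was tested on simulated data first. Intervals are 95% and come from that fit. The pseudocount of 1 in the deposited values understates changes of low genes. Levels per kilobase use the longest APPRIS principal transcript of the GENCODE annotation on GRCm38, and positions count from 1. Promoters are from RefSeq on GRCm38.p6.

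The genes, classes and lists were chosen with earlier results of these data known. Named are Acot2, all SR genes and muscle regulators, Rbm3 and Cirbp. In each other class the 4 genes with the smallest p and the 3 with the highest level per length are named. So are splicing factor genes at 0, splicing factor genes whose groups do not overlap, and the 3 genes with the smallest p in each list. Hnrnpd, Hnrnpc, Hnrnpl, Hnrnpll, Rbm4, Rbm11, Rbm44, Rbm46, Rbm47, Srpk3, Eftud2, Khdrbs3, Pcbp1, Snrpe, Tial1, Myl2, Myl3, Tnni1, Atp2a2, the genes flagged below and titin were named after their values were seen. Alternatives covered scaling, filters, the pseudocount, weighted and covariate fits, voom and leaving out libraries.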

Additional observations from a re-analysis of the deposited data

Results flagged for a closer look

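Of 140 groups of 4 mice examined (69 splicing factor genes and Acot2, knockouts and floxed controls apart), 8 held a mouse whose gap to the nearest other, divided by the range of the group, was above Dixon's 95% critical value, where chance gives about 7. In knockouts, Mbnl1 had 23982 normalized counts in knockout 8, against 20042 to 20188 in the other 3. Rbm34 had 439.9 in knockout 5, against 519 to 529 in the other knockouts, and Rbm12 had 172 in knockout 5, against 79.5 to 89.4. In floxed controls, Srsf10 had 736 in floxed control 3, against 886 to 904 in the other 3. Rbm25 had 2053 in floxed control 1, against 2304 to 2341, and Rbm24 had 5474 in the same mouse, against 6761 to 7045. Rbm27 had 929 in floxed control 2, against 1139 to 1172, and Rbm15 had 1531 there, against 1985 to 1993. Knockout 5, floxed control 1 and floxed control 2 each hold 2 of the 8 flagged values.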

How the results depend on the processing

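Over 19 alternatives no splicing factor gene passed an adjusted p of 0.05 in limma, and 42 of 69 kept the sign of their difference in every alternative that tested them (Rbm43 and Rbm47 were tested in 18). Without the filter on low values 1 gene of the whole table was called, Acot2, with a limma adjusted p of 0.0042 against 0.087 with the filter. Splicing factor genes higher at an unadjusted limma p under 0.05 numbered 1 of 69 instead of 0 with scaling to the same total, with library weights, and without floxed control 4 and knockout 5. In these settings 739, 1467 and 1509 genes of the whole table were under 0.05, of which 248, 801 and 824 were lower. The main fit had 810, of which 486 were lower. When single mice were left out, 0 to 1 splicing factor genes were higher. The 1 came without knockout 5, where 2200 genes of the whole table were under 0.05 and 1135 of them lower. Those lower numbered 2 to 12 when single mice were left out, instead of 6, while the share of all tested genes ranged from 1.68% to 8.64%, instead of 3.70%. The Acot2 difference was -2.30 with a permutation p of 0.05 with a covariate for mouse number range, and -2.44 with a permutation p of 0.1 without floxed control 4 and knockout 5; here fewer assignments are left. Without single mice it ranged from -2.49 to -2.03. The cause of the other shifts was not tested. Without knockout 5, 2 splicing factor genes had an adjusted limma p under 0.1, and so had 143 genes in all. No paired analysis was made. The sample titles share no replicate number between groups. The deposited columns number each group from 1 to 4, but the labels do not say that equal numbers are pairs. With 4 mice per group, the SE of a splicing factor difference ranged from 0.0709 to 0.566, and low genes such as Rbm47 had the widest.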
